A study of Mus musculus with 76 samples.

Results

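The genes described here are 56 of the 15192 genes listed for single mouse cells called iHPCs, and they handle reactive oxygen, glutathione and stored iron. They were chosen by name: every listed gene of the peroxiredoxin (Prdx), glutathione peroxidase (Gpx), glutathione transferase (Gst), superoxide dismutase (Sod1 to Sod3), thioredoxin (Txn), thioredoxin reductase (Txnrd) and glutaredoxin (Glrx) families, with Gclc, Gclm, Cat, Gsr, Hmox1, Nqo1, Nfe2l2, Keap1, Ftl1, Fth1 and Tfrc. All 56 symbols were found in the RefSeq annotation. Per the labels, the iHPCs came from pluripotent stem cells with inducible expression of Runx1, Hoxa9 and Hoxa10, and single cells were sorted for polyA RNA sequencing. All 76 cells carried the same labels and formed 1 group, with no control cells among them and no age, time, culture or clone named here, so the cells stand for 1 sample and no p-value is given. Whether the inducible factors were still switched on when the cells were sorted is not given in the sources used here.

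Cells make superoxide and hydrogen peroxide as by-products of respiration and as signals. Superoxide dismutases turn superoxide into hydrogen peroxide, which catalase, peroxiredoxins and glutathione peroxidases then reduce. Peroxiredoxins are recharged by thioredoxin and its reductase, and glutathione peroxidases by glutathione and its reductase, both at the expense of NADPH. Free ferrous iron converts hydrogen peroxide into more damaging radicals, and ferritin, a shell of heavy (Fth1) and light (Ftl1) chains, stores iron out of its reach. Blood-forming stem and progenitor cells are known to be sensitive to their oxidant level, and the transcription factor Nrf2 (Nfe2l2) raises many of these genes in response to oxidants.

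Sequences of 3 kinds mark how these genes are controlled or read, and they are shown because the ferritin, peroxidase and glutathione results below concern the genes that carry them. The first is the stem loop bound by iron regulatory proteins, which block translation from the start of a transcript and stabilise a transcript from its end. It was searched for in annotated untranslated regions (GENCODE vM21, build GRCm38) as a C, 5 bases, the loop CAGTGN with any last letter but G, and 5 bases pairing with the first 5. Capitals mark the loop, and each sequence is read along the transcript:
Ftl1, chr7:45459779-45459806, minus strand, 5′ untranslated region: tcttgcttcaaCAGTGTttgaacggaac
Fth1, chr19:9982733-9982760, plus strand, 5′ untranslated region: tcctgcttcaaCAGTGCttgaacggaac
Slc40a1, chr1:45925465-45925492, minus strand, 5′ untranslated region: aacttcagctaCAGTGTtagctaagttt
Tfrc, chr16:32631599-32631626, plus strand, 3′ untranslated region: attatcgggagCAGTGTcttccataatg
Tfrc, chr16:32631711-32631738, plus strand, 3′ untranslated region: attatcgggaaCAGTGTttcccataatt

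Among the 56 genes, Ftl1 and Fth1 held such a loop in the 5′ untranslated region and Tfrc held 4 in the 3′ region, of which 2 are shown. Slc40a1 is no member but encodes ferroportin, the exporter of iron, and is shown because its level bears on a cell described below. A loop of this form was found in the 5′ region of 0.110% of 20899 genes and in the 3′ region of 0.476% of 21022 genes.

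The second is the UGA codon that glutathione peroxidases and thioredoxin reductases read as selenocysteine, the selenium amino acid at their active site. Capitals mark that codon, written TGA, in the coding sequence (GENCODE vM21, GRCm38):
Gpx1, chr9:108339451-108339453, plus strand: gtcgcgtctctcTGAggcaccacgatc
Gpx4, chr10:80054737-80054739, plus strand: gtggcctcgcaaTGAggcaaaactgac
Gpx3, chr11:54907256-54907258, plus strand: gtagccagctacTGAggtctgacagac
Txnrd1, chr10:82896037-82896039, plus strand: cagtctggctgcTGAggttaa

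In the 4 peroxidases with such a codon, Gpx1, Gpx2, Gpx3 and Gpx4, it lay inside the frame with at least 124 codons after it, and in Txnrd1, Txnrd2 and Txnrd3 it was followed by 1 codon. Gpx7 and Gpx8 held none.

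The third is the core of the antioxidant response element, TGACNNNGC, to which Nrf2 binds together with small Maf proteins. It was searched for on both strands from 250 bases before to 50 bases after any start listed for a gene in the RefSeq promoter table (GRCm38.p6). Such a start need not be the gene's outermost one: the Txnrd1 match lies inside the gene, which begins at position 82833951. Capitals mark the match, which is on the strand opposite to the gene in the first 3 and on the gene's strand in Nfe2l2:
Gclm, chr3:122245408-122245447, plus strand: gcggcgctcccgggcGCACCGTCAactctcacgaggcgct
Prdx1, chr4:116685451-116685490, plus strand: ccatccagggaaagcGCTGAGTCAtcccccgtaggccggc
Txnrd1, chr10:82859099-82859138, plus strand: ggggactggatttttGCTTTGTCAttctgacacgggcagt
Nfe2l2, chr2:75704879-75704913, minus strand: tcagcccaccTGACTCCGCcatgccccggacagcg

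The core stood in 8 of the 47 members with an entry in that table, which is 17%: Gclm, Gsta3, Gstm5, Gstm7, Nfe2l2, Prdx1, Sod1 and Txnrd1. Over all 27025 genes of the table the share was 14%. Over the 10880 genes of the table that these cells list it was 17.1%, so the members were not set apart from those in this window. In the 250 bases before the start alone, the members stayed at 17%, against 11.5% of all genes and 14.1% of the listed genes. In Prdx1 the match overlaps TGACTCA, the motif of the AP-1 factors. A match is only letters in this window, and Gclc, Gpx2-ps1, Gsr, Gsta4, Gstt2, Hmox1, Prdx6, Prdx6b and Sod3 had no entry.

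Values were TPM, transcript shares scaled for gene length, and each cell summed to 1000000, so a value is a share and the number of reads behind it is unknown. A gene counted as detected at 1 TPM or more. Between 2465 and 5992 genes were detected per cell, with a median of 4182.5. An exact 0 can be a failed capture: Polr2a, a subunit of RNA polymerase II that all cells use, reached 1 TPM in 22 cells. All 10 pan-haematopoietic markers and all 5 progenitor markers on the list were found in at least 38 cells, as were 2 of 8 macrophage, 1 of 5 mast cell and 1 of 4 endothelial markers, and none of 6 erythroid, 4 stromal and 2 pluripotency markers was. The cell titled H9 stood apart from the other 75 in the values below, so results that it touches are given with and without it.

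These genes were a large presence in the iHPCs. Detected in at least 38 of the 76 cells were 27 of the 56 (48.2%), against 23.1% of all listed genes, and in every cell 10 (17.9%), against 3.32%. Never reaching 1 TPM were 7 (12.5%), against 18.8% of all genes: Gpx2, Gpx2-ps1, Gpx7, Gpx8, Gsta2, Prdx6b and Sod3. The plot of cells per gene shows all 56. A gene found in 0 of 76 cells may still be in up to 3.95% of cells by a limit of 3 counts, or 4.74% by the exact 95% interval, both of which cover the counting of cells only. A cell held a median of 27 members, from 20 to 33, and cells with more genes held more members (Spearman rho 0.61 over 76 cells, with both counts taken from the same libraries). Among genes in at least 38 cells, the median of the genes' median levels was 342 TPM for the members and 99.7 TPM over all 3511 genes. Of these 27 members, 9 share over 10% of their 50-base stretches with another gene, so their levels are uncertain. The sharing genes not taken up below are Sod2 (21%), Gstm1 (18.9%), Prdx5 (15.5%, with its overlapping neighbour Trmt112) and Prdx2 (12%). Where no lowest value is given below for one of the 27 members, it was 0.

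**Figure D1:**
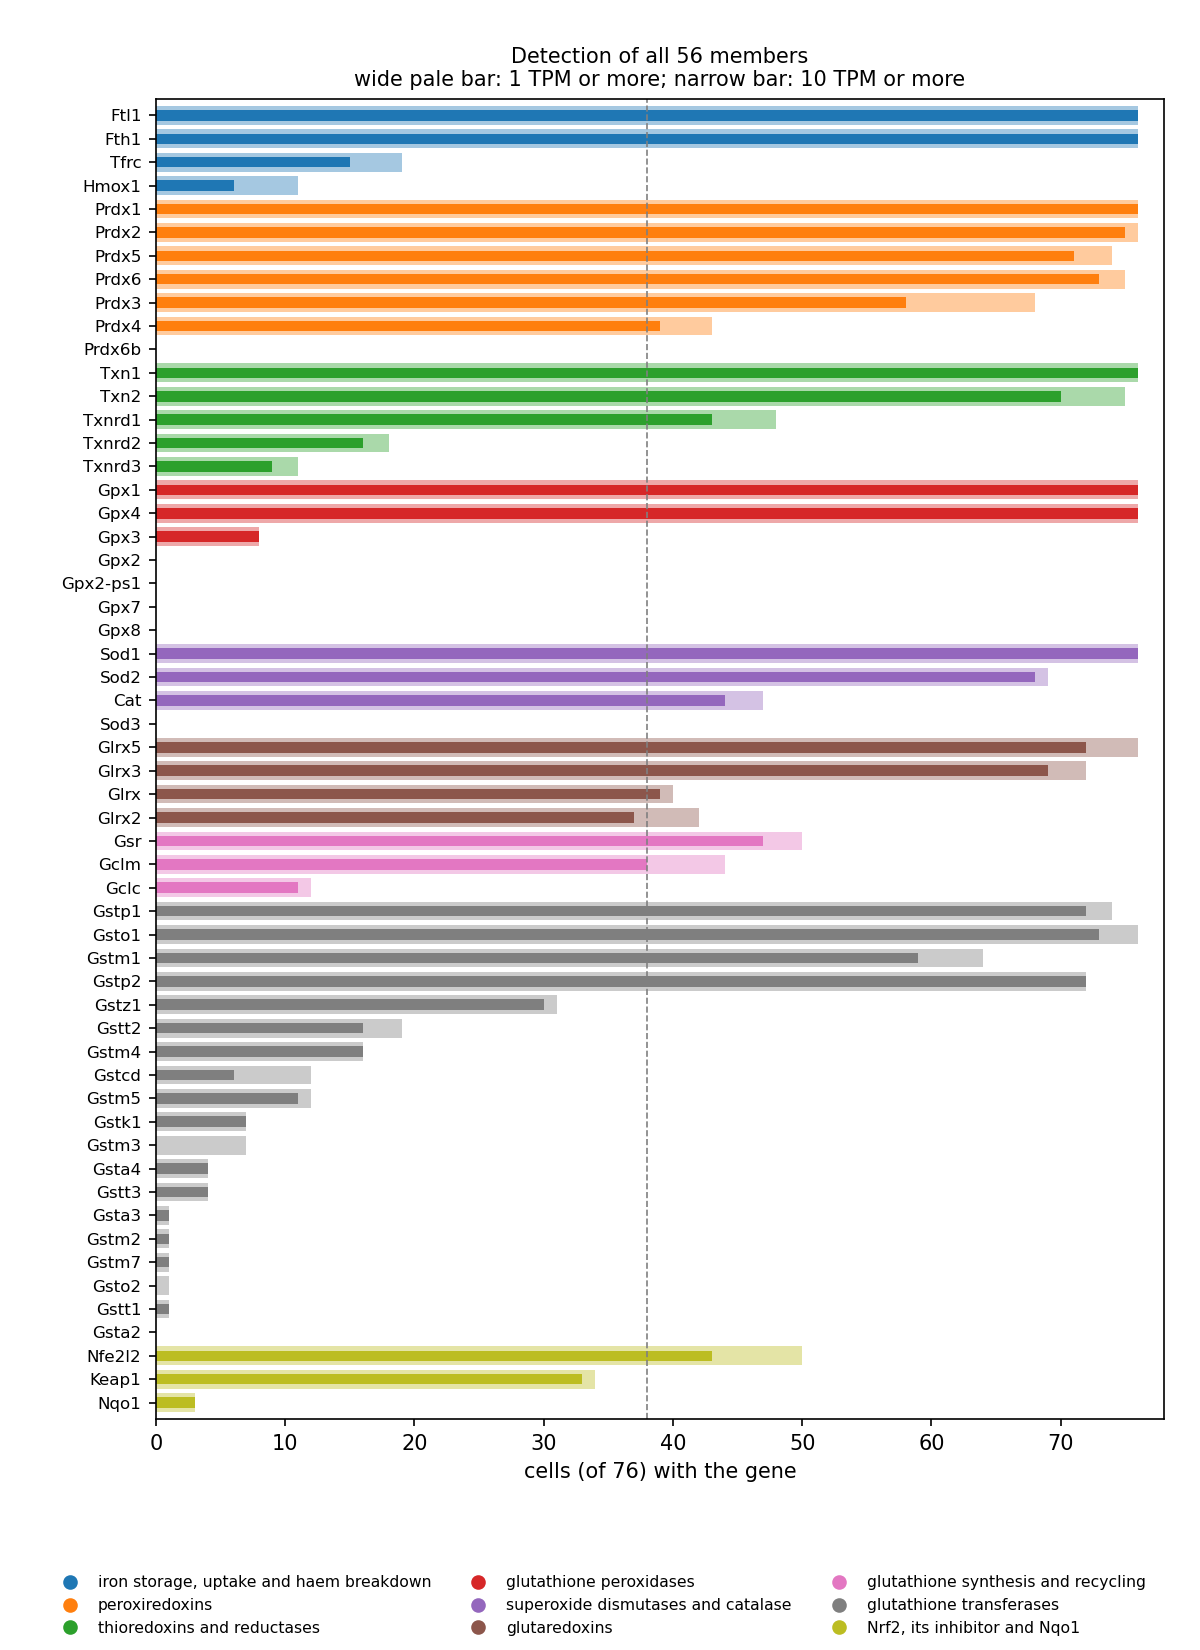
Number of the 76 cells (horizontal axis) in which each of the 56 genes reached 1 TPM (wide pale bar) or 10 TPM (narrow bar), coloured by role, with a dashed line at 38 cells. Of the 56, 10 fill the whole width at 1 TPM and 7 have no bar.

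Together the 56 genes made up between 1.65% and 11.6% of the TPM in a cell, with 2.36% in the median cell. Ftl1 and Fth1 alone made up 1.10% in the median cell, from 0.655% to 9.69%, which was 47.2% of the members' TPM in the median cell. The highest value of each belonged to cell H9, and the next cells had 4.20% for all members and 2.82% for ferritin. The other 54 genes ranged only from 0.935% to 1.94%, with a median of 1.26%.

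By median level Ftl1 was the most abundant of these transcripts, while Fth1 lay below Gpx1, whose median was 3208 TPM. Ftl1, the light chain that helps the iron core to form, was at 4758 TPM in the lowest cell, 8616 TPM in the median cell and 68318 TPM in the highest, and its median was number 2 of all listed genes. Fth1, the heavy chain that oxidises iron, was at 796, 2434 and 28623 TPM on the same 3 points, number 28 of all genes. No cell lacked either gene. Without cell H9 their highest values were 24423 TPM for Ftl1 and 6741 TPM for Fth1. Ftl1 exceeded Fth1 in all 76 cells, by a median ratio of 3.75 and a range from 1.26 to 11.5. Of the 50-base stretches of Ftl1, 58.4% also occur in other genes, chiefly the pseudogene Ftl1-ps1, which is not analysed here, so the Ftl1 level is uncertain; for Fth1 the share was 1.59%.

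The iron importer was at the other end. Tfrc, the transferrin receptor, was detected in 19 cells (25%, exact 95% interval 15.8 to 36.3%) and reached 10 TPM in 15. Its highest values were 185 TPM in cell E8, 165 TPM in cell D2 and 152 TPM in cell H6, and its median was 0. In the 19 cells with both, the ratio of Ftl1 to Tfrc had a median of 228, from 39.1 to 2937, and that of Fth1 to Tfrc a median of 67.9, from 11 to 631. So even the cell with the most receptor transcript for its ferritin held far more ferritin transcript. Hmox1, which breaks down haem and frees its iron, was detected in 11 cells (14.5%, interval 7.45 to 24.4%) and reached 10 TPM in 6. It was at 3753 TPM in cell H9, then at 277, 135, 124, 106 and 90.8 TPM in cells C9, B11, E7, E4 and E6, and at most 5.66 TPM in the rest. Hence 1 cell held most of the Hmox1 transcript seen.

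**Figure D2:**
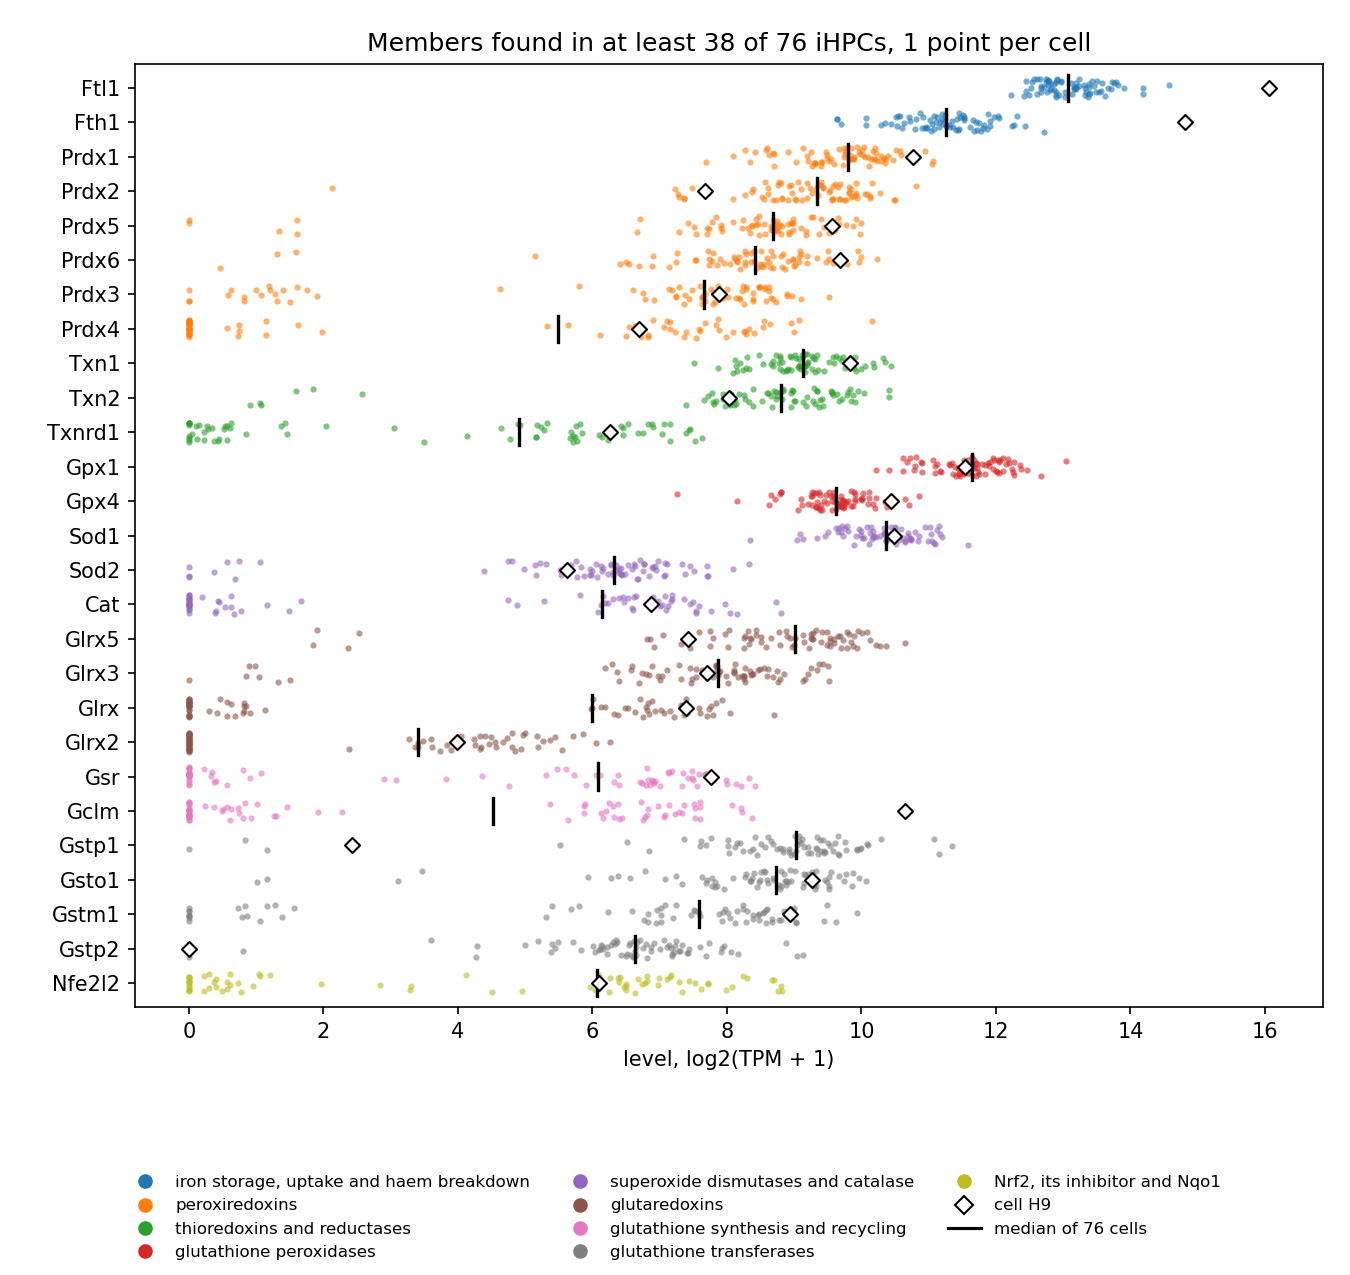
Level of each of the 27 genes found in at least 38 cells, as log2(TPM + 1) on the horizontal axis, with 1 point per cell, coloured by role. The black line is the median of the 76 cells and the open diamond is cell H9, which lies far right of all other cells for Ftl1, Fth1 and Gclm.

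The peroxiredoxins were broadly present, with 6 of 7 in at least 38 cells and all of Prdx1 to Prdx6 together in 39 cells. Prdx1, a peroxidase of cytosol and nucleus, ran from 205 TPM through a median of 889 to 2132 TPM. Prdx2, a cytosolic peroxidase best known from red cells, ran from 3.37 through 645 to 1792 TPM. The median ratio of Prdx1 to Prdx2 was 1.36, from 0.239 to 166, so either gene could be the higher. Prdx5, found in mitochondria, peroxisomes and cytosol, had a median of 411 TPM between 0 and 1020, and Prdx6, which also acts on phospholipid peroxides, 342 TPM between 0.37 and 1204. Both were missing at 1 TPM from at most 2 cells. Prdx3, the mitochondrial form, was detected in 68 cells with a median of 201 and a highest value of 733 TPM. Prdx4, the form of the endoplasmic reticulum, was detected in 43 cells with a median of 44 and a highest value of 1139 TPM; the median was 2.08 TPM in title numbers 2 to 6 and 104 TPM in numbers 7 to 11. Prdx3 and Prdx4 were thus found less widely than the cytosolic pair. Prdx6b stayed under 1 TPM in every cell.

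Thioredoxins were abundant and their reductases sparse. Txn1, the cytosolic thioredoxin, ran from 182 through 558 to 1385 TPM and was in every cell. Txn2, its mitochondrial counterpart, had a lowest value of 0.88, a median of 447 and a highest of 1365 TPM and was in 75 cells. Txnrd1, the cytosolic reductase, was detected in 48 cells with a median of 28.9 and a highest value of 196 TPM; the median was 39 TPM in title numbers 2 to 6 and 0.79 TPM in numbers 7 to 11. The mitochondrial Txnrd2 was in 18 cells, up to 229 TPM, and Txnrd3 in 11, up to 180 TPM. At least 1 reductase was detected in 58 cells. The full cytosolic set of Txn1, Txnrd1 and Prdx1 was seen in 48 cells and the mitochondrial set of Txn2, Txnrd2 and Prdx3 in 17. In each set the reductase was the gene found in fewest cells.

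The glutathione peroxidases split into 2 genes in every cell and 5 in few or none. Gpx1, the cytosolic and mitochondrial form, ran from 1189 through 3208 to 8387 TPM, number 20 of all genes by median. Gpx4, which reduces lipid peroxides in membranes and guards against ferroptosis, ran from 152 through 784 to 1855 TPM. Gpx1 exceeded Gpx4 in all 76 cells, by a median ratio of 4.03 and a range from 1.18 to 19.1. Gpx3, the secreted plasma form, was detected in 8 cells, highest in cell H9 at 815 TPM and then in cell E6 at 497 TPM. The UGA codon printed above was thus part of transcripts in every cell. Of the stretches of Gpx4, 34.7% also occur in the pseudogene Gpx4-ps2, and of Gpx1 none occur elsewhere.

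Of the superoxide dismutases, Sod1 of the cytosol ran from 325 through 1316 to 3065 TPM and was in every cell, and Sod2 of mitochondria had a median of 79.2 and a highest value of 320 TPM in 69 cells. Cat, the peroxisomal catalase, was in 47 cells with a median of 69.6 and a highest value of 445 TPM. Sod1, Sod2 and Cat were found together in 43 cells. Secreted Sod3 was listed at 0 throughout.

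All 4 glutaredoxins were in at least 38 cells. Glrx5, a mitochondrial carrier of iron-sulphur clusters, ran from 2.61 through 514 to 1603 TPM. Glrx3, a cytosolic protein of iron handling, was in 72 cells with a median of 233 and a highest value of 729 TPM. Glrx and Glrx2 are the classical enzymes that remove glutathione from proteins. Glrx was in 40 cells with a median of 62.5 and a highest value of 413 TPM, and Glrx2 in 42 cells with a median of 9.63 and a highest value of 75.6 TPM, so the medians of both lay below those of the 2 forms of iron handling. Of the stretches of Glrx3, 15.1% are shared, mostly with the listed gene Gm12669.

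Glutathione is made in 2 steps, of which the first, by glutamate-cysteine ligase, limits the rate. Its modifier subunit Gclm was detected in 44 cells (57.9%, interval 46 to 69.1%), with a highest value of 1596 TPM, in cell H9; the next cell had 331 TPM. Its median of 22 TPM lay in the gap between cells with and without it, and was 3.83 TPM without cell H9, 40.1 TPM in title numbers 2 to 6 and 3.83 TPM in numbers 7 to 11. Its catalytic subunit Gclc was detected in 12 cells (15.8%, interval 8.43 to 26%), up to 124 TPM. Both were seen in 5 cells, Gclm alone in 39, Gclc alone in 7 and neither in 25. Shares that were independent of each other would put both in 6.95 cells, so the pair was not found together more than that. In the 5 cells with both, the ratio of Gclm to Gclc had a median of 2.08, from 0.979 to 3.68. Gsr, which returns oxidised glutathione to its reduced form, was in 50 cells with a median of 66.5 and a highest value of 340 TPM.

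Of the 19 glutathione transferases, which join glutathione to foreign or damaged molecules, 4 were in at least 38 cells. Gstp1 had a lowest value of 0, a median of 523 and a highest of 2613 TPM, and its neighbour Gstp2 0, 97.8 and 561 TPM. These 2 genes share sequence, 33.7% of the stretches of Gstp1 and 49.1% of those of Gstp2 with each other, so reads may have been split between them. Gsto1, of the omega class, ran from 1.01 through 425 to 1072 TPM and was in every cell, and Gstm1, of the mu class, was in 64 cells with a median of 192 and a highest value of 977 TPM. Fewer cells held the rest: Gstz1 was in 31 cells and reached 10 TPM in 30, Gstt2 in 19 and 16, Gstm5 in 12 and 11, and Gstcd in 12 and 6. Gstm4 was in 16 cells, Gstk1 in 7, Gsta4 and Gstt3 in 4 each, and Gsta3, Gstm2, Gstm7 and Gstt1 in 1 each, in all of which they passed 10 TPM. Gstm3, in 7 cells, and Gsto2, in 1 cell, never reached 10 TPM. Gsta2 was not detected. Rare did not mean faint: Gstt2 reached 611 TPM and Gstm5 619 TPM in their highest cells.

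Nfe2l2, which encodes Nrf2, was in 50 cells (65.8%, interval 54 to 76.3%) with a median of 66.3 and a highest value of 452 TPM. That median was 87.2 TPM in title numbers 2 to 6 and 6.16 TPM in numbers 7 to 11. Keap1, which holds Nrf2 for degradation, was in 34 cells (44.7%, interval 33.3 to 56.6%), up to 231 TPM. Both were seen in 25 cells, where independent shares would give 22.4. Nqo1, a quinone reductase and standard target of Nrf2, was in 3 cells (3.95%, interval 0.822 to 11.1%), at 216 TPM in cells C9 and B10 and 171 TPM in cell G5. Hmox1 and Nqo1, both inducible by oxidants, were detected together in 1 cell, C9, and none of Tfrc, Hmox1 and Nqo1 was found in 48 cells.

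The members in every cell differed in how evenly they were expressed. Their coefficients of variation, the SD over the mean across 76 cells, were 0.36 for Gpx4, 0.38 for Gpx1, 0.38 for Sod1, 0.43 for Txn1, 0.45 for Prdx1, 0.51 for Prdx2, 0.58 for Gsto1 and 0.62 for Glrx5. The median over all 505 genes found in every cell was 0.48, so 5 members lay below it. The ferritin chains had the largest, 0.75 for Ftl1 and 1.08 for Fth1, and without cell H9 these were 0.37 and 0.43. Both lie below 0.48, but that median was taken over all 76 cells, with cell H9. Much of the spread of ferritin over the iHPCs thus came from 1 cell.

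Cell H9 was singled out after these values were seen, so what follows is a description. It had 4367 detected genes and 31 members, near the middle of the cells for genes. It was the highest cell for 5 of the 49 members found in any cell (10.2%), Ftl1, Fth1, Gclm, Hmox1 and Gpx3, against 1.33% of 12342 genes found in any cell. No other cell was the highest for more than 2 members.

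**Figure D3:**
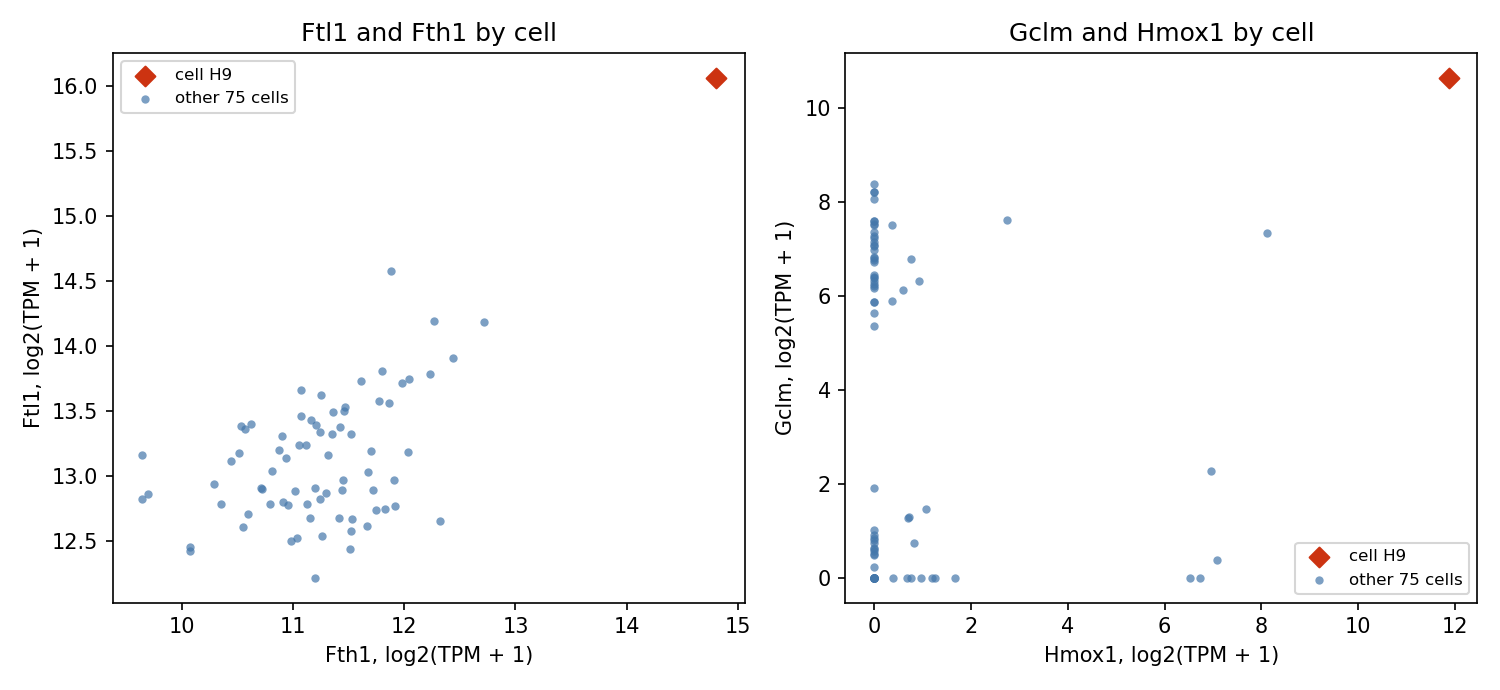
Ftl1 against Fth1 (left) and Gclm against Hmox1 (right) in each of the 76 cells, all as log2(TPM + 1), with cell H9 as a red diamond and the other 75 cells as blue points. Cell H9 lies at the top right of both panels, alone.

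In cell H9 ferritin stood far above the rest. Ftl1 was at 68318 TPM there, 8.15 times the median of the other cells, and Fth1 at 28623 TPM, 11.8 times. Over the next highest cell, the value in cell H9 was 2.80 times for Ftl1, 4.25 times for Fth1, 4.83 times for Gclm, 13.6 times for Hmox1 and 1.64 times for Gpx3. Because TPM are shares, the 9.69% held by ferritin leaves that much less for other genes. Even so, Prdx1 at 1732 TPM and Gpx4 at 1383 TPM were each number 4 of the 76 cells. Not all members were high there. Gstp1 was at 4.34 TPM in cell H9 against a median of 527 TPM in the others, and Prdx2 at 203 against 650 TPM. Keap1 was listed at 0 against a median of 0.44 TPM. Gclc, Nqo1 and Tfrc were also listed at 0, which was their median in the others too.

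Some other genes of iron and of the response to oxidants were also high in cell H9, and others were low or at 0. Of the list of iron uptake, export and regulation, whose sum was 1275 TPM in cell H9 with 15 other cells above it, Slc40a1 made up most. Slc40a1, the iron exporter whose stem loop is printed above, was at 725 TPM in cell H9 and at most 0.81 TPM elsewhere. Slc11a1, a metal transporter of phagosomes, was at 73.9 TPM in cell H9 and at most 0.39 TPM elsewhere. On the same list, Hmox2 was at 25.8 TPM in cell H9 against a median of 231 TPM over all cells. Ncoa4 was at 9.87 against 76.1 TPM, and Pcbp2 at 0 against 70.1 TPM. Aco1, Ireb2 and Slc11a2 were at 0 in cell H9, which was also their median over all cells. The list of iron-sulphur clusters and haem summed to 1670 TPM in cell H9, with 58 other cells above it. Sqstm1, an adaptor of autophagy and Nrf2 target, was at 1809 TPM in cell H9 and at most 1501 TPM in the others, and Srxn1, which repairs peroxiredoxins, at 176 TPM and at most 155 TPM. The metallothioneins Mt1 at 3560 TPM and Mt2 at 390 TPM were each number 2 of the cells. Slc7a11, the cystine importer, was at 0.21 TPM against a median of 0.06 TPM in the others, of which 2 reached 1 TPM.

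Markers of macrophages, cells known to recycle haem iron through these genes, moved with the same cell. The 8 listed markers summed to 2728 TPM in cell H9, against 0 to 1277 TPM, with a median of 228 TPM, in the other 75 cells. Detected in cell H9 were 4 of the 8: Cd68 at 1532 TPM (at most 548 TPM elsewhere), Adgre1 at 543 TPM (at most 644 TPM elsewhere), Lyz2 at 444 TPM (at most 1276 TPM elsewhere) and Csf1r at 209 TPM (at most 200 TPM elsewhere). Mertk, C1qa, C1qb and C1qc were at 0 in cell H9. Mertk and C1qb were at 0 in all other cells too, and C1qa and C1qc each reached 1 TPM in only 1 other cell. The 5 progenitor markers summed to 812 TPM in cell H9, against a median of 2150 TPM in the others, with Cd34 at 293 TPM and Kit at 0.13 TPM. All 6 erythroid markers were at 0, and the median of their sum in the others was also 0. Dppa5a, a marker of pluripotent cells, was at 49.2 TPM in cell H9 and at 0 in all 75 others, while Pou5f1 was at 0 in cell H9. Elane, a granule protease of neutrophil precursors, was at 287 TPM in cell H9 and reached 1 TPM in 1 other cell. The part of these markers in the ferritin values, and whether this library held more than 1 cell, was not tested. In its correlation with the other cells over all genes, cell H9 had a median rho of 0.58, and the medians of the 76 cells ran from 0.53 to 0.63. Such a value covers all genes alike, so it does not settle what cell H9 was.

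**Figure D4:**
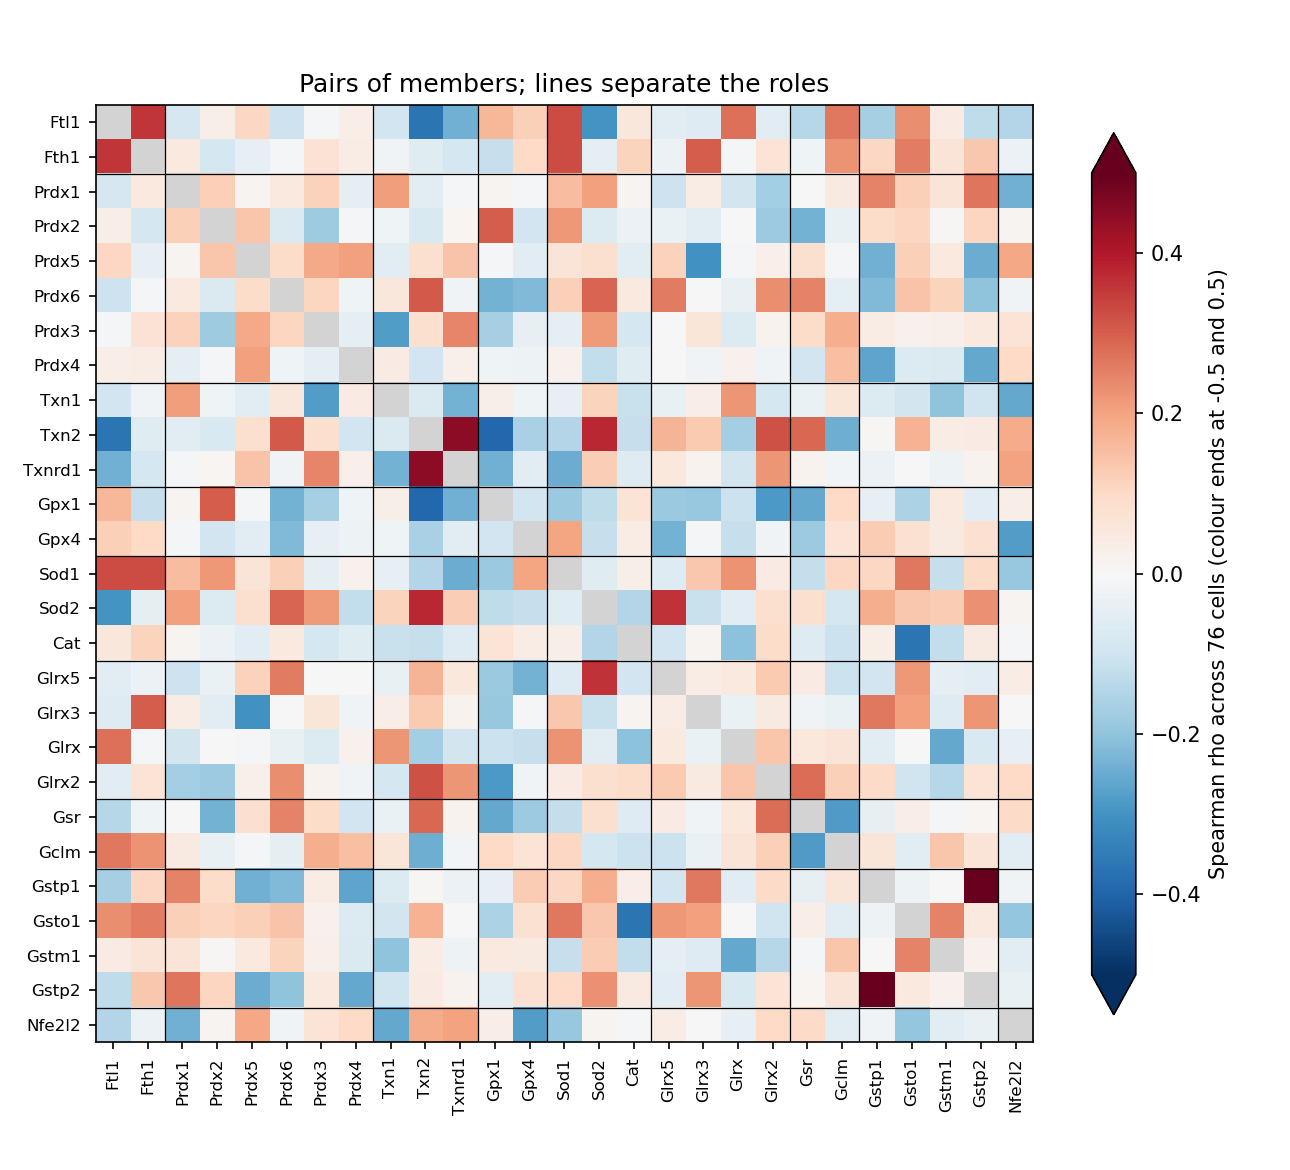
Spearman rho of log2(TPM + 1) across the 76 cells for each of the 351 pairs of the 27 genes found in at least 38 cells, ordered by role, with black lines between roles and the diagonal in grey. Most pairs are pale, and Gstp1 with Gstp2 at 0.95 is the darkest.

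Across cells the members did not move as a block. Over the 351 pairs of the 27 genes found in at least 38 cells, the median rho was 0.0025, against 0.0078 over all pairs of the 3511 such genes. A rho of 0.3 or more was reached by 11 pairs (3.13%), against 1.3% of all pairs, and of -0.3 or less by 4 pairs (1.14%), against 0.804%. These are correlations across cells of 1 group that share library preparation and scaling to a fixed total, and they are given as descriptions with n = 76. The highest was Gstp1 with Gstp2 at 0.95, the neighbours that share sequence. Next came Txn2 with Txnrd1 at 0.45, Txn2 with Sod2 at 0.38, Sod2 with Glrx5 at 0.36 and Ftl1 with Fth1 at 0.36. Of these, Txn2, Sod2 and Glrx5 act in mitochondria, but Txn2 with Glrx5 was at only 0.17. With Prdx3, the mitochondrial peroxiredoxin, Sod2 was at 0.21, Txn2 at 0.08 and Glrx5 at 0.001. Txnrd1 is the cytosolic reductase, and Txn2 with Txnrd1 was at 0.29 in title numbers 2 to 6 and 0.48 in numbers 7 to 11. Txn2 with Sod2 differed between sets of titles: rho was 0.11 in the 37 cells with title numbers 2 to 6 and 0.51 in the 39 cells with numbers 7 to 11. The lowest were Txn2 with Gpx1 at -0.39, Cat with Gsto1 at -0.37 and Ftl1 with Txn2 at -0.37.

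Of 17 pairs joined by biochemistry, 8 had a rho under 0.1 in size and 7 over 0.2, in either direction. The shares of all pairs at these limits are not given here, so the counts do not set the 17 pairs apart. Ftl1 with Fth1 was the only one to reach 0.3 in size over all cells, at 0.36 (Pearson r 0.60). It was 0.33 without cell H9, 0.27 in title numbers 2 to 6 and 0.49 in numbers 7 to 11. Without cell H9, Gclm with Gsr passed as well, at -0.32, against -0.28 over all cells. That pair was at -0.12 in title numbers 2 to 6 and -0.41 in numbers 7 to 11. Within the sets of titles, 2 pairs reached 0.3 in size in numbers 2 to 6 and 3 in numbers 7 to 11. These sets hold only 37 and 39 cells, and no share of all pairs stands beside these counts either. The subunits Gclc and Gclm had a rho of -0.24, ferritin and its opposite in iron supply, Ftl1 and Tfrc, -0.23, and Fth1 and Tfrc 0.03. Txn1 had a rho of -0.24 with its reductase Txnrd1 and of 0.21 with its client Prdx1. With Txnrd1 it was -0.35 in title numbers 2 to 6 and -0.03 in numbers 7 to 11. Gclm had a rho of 0.27 with Nqo1, which was in 3 cells, and of -0.16 with Hmox1. The repressor pair Nfe2l2 and Keap1 was at 0.03, Sod1 and Cat at 0.03, Sod1 and Sod2 at -0.06, and Gpx1 and Gpx4 at -0.10. Hmox1 with Ftl1 was at 0.08, while its Pearson r was 0.33, which cell H9 enters. Since Gclc, Tfrc, Hmox1, Nqo1 and Keap1 were under 1 TPM in most cells, a weak rho for them is no finding.

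Ftl1 and Gpx1 were lower in cells with more transcript of S phase genes, the genes of DNA replication. With the mean log2(TPM + 1) of 23 such genes, rho across 76 cells was -0.52 for Gpx1 and -0.51 for Ftl1, and these were the 2 of 27 members (7.41%) at -0.3 or less, against 3.2% of all genes. At 0.3 or more were 3 members (11.1%), against 10.2% of all genes: Txn2 at 0.35, Glrx2 at 0.32 and Sod2 at 0.31. In cells with at least 3500 genes and in each set of title numbers, 5 members (18.5%) were at 0.3 or more, against 9.58%, 12.1% and 15.1% of all genes. Both sums come from the same library, and Gpx1 also had a rho of -0.42 with the number of genes detected. With that number regressed out of the ranks, rho was -0.48 for Ftl1 and -0.39 for Gpx1. These were again the 2 members at -0.3 or less (7.41%, against 3.49% of all genes). Gstp1, at 0.31, was then the only member at 0.3 or more (3.70%, against 7.01% of all genes). In the cells with title numbers 2 to 6 rho was -0.40 for Ftl1 and -0.63 for Gpx1, and in those with numbers 7 to 11 it was -0.63 and -0.40. Fth1 had a rho of only -0.10 with the same genes, so the ferritin chains differed here. With 22 genes of G2 and M phase, Ftl1 had a rho of -0.36, which was -0.16 in title numbers 2 to 6, -0.52 in numbers 7 to 11 and -0.29 in cells with at least 3500 genes. Cell H9 was among the lowest for the S phase genes, whose sum was 781 TPM there against a median of 3063 TPM in the others, and without it rho was -0.49 for Ftl1 and -0.53 for Gpx1.

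**Figure D5:**
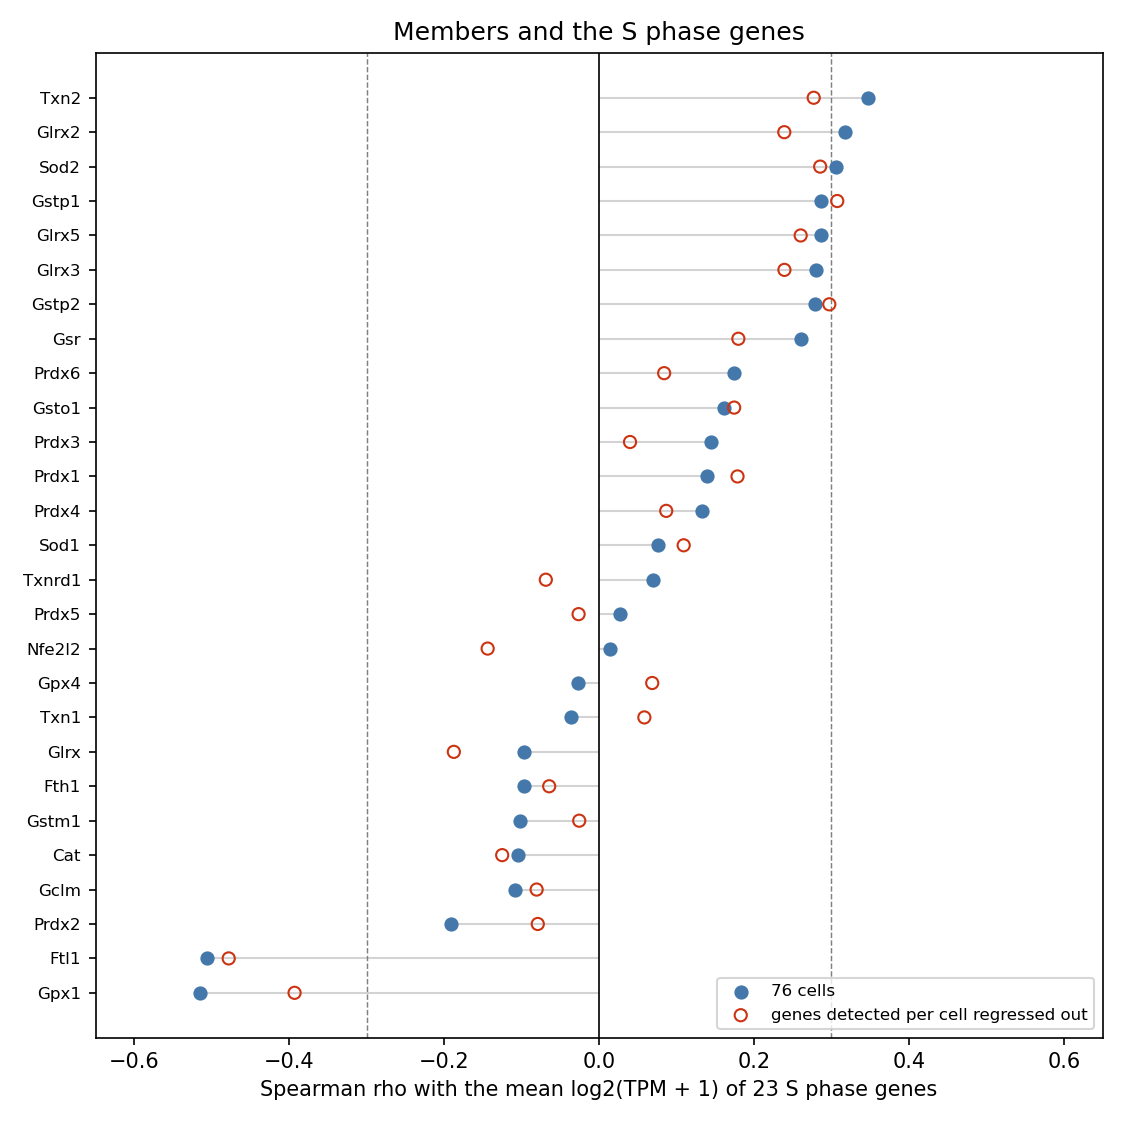
Spearman rho of each of the 27 genes found in at least 38 cells with the mean level of 23 S phase genes, over 76 cells (filled) and with the number of genes detected regressed out (open), with dashed lines at -0.3 and 0.3. Gpx1 and Ftl1 lie below -0.3 in both, and no other member does.

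With Runx1, 1 of the 3 induced factors, 1 member had a rho of 0.3 or more (3.70%, against 2.36% of all genes) and 4 of -0.3 or less (14.8%, against 2.74%). The first was Gpx1 at 0.36. The others were Gstp2 at -0.36, Glrx3 at -0.33, Gstp1 at -0.32 and Sod1 at -0.31, of which the Gstp genes share sequence. The count at -0.3 or less was 2 (7.41%, against 4.27%) in cells with at least 3500 genes, 5 (18.5%, against 6.21%) in title numbers 2 to 6 and 2 (7.41%, against 6.75%) in numbers 7 to 11. Without cell H9 it was 5 (18.5%, against 2.62%), with Fth1 as the added gene at -0.32, against -0.29 over all cells. Gene-level TPM does not tell the introduced Runx1 from the chromosomal gene, and the values were not alike in the 2 sets of title numbers: rho of Gstp1 was -0.51 in numbers 2 to 6 and -0.20 in numbers 7 to 11. With 14 genes of glycolysis, the members' rho lay between -0.28 for Gstp2 and 0.20 for Glrx.

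For 7 members, the 5 genes outside the 56 with the most similar pattern were taken by Spearman rho over 76 cells among 3484 genes found in at least 38 cells. Ftl1 was most like Atp5d (0.44), then Map1lc3b, Aldoa, Rplp0 and Shfm1. Fth1 was most like Tmsb4x (0.54), then Pdlim7, Rps25, Stk4 and Eif3f. No gene was shared between the lists of the ferritin chains. Gpx1 was most like Lst1 (0.49), then Srgn, H3f3a, Lgals9 and Myl6. Prdx1 was most like Ppie (0.42), then Hypk, Bola2, Rpl23a and Atp5g3, and Txnrd1 was most like Mki67ip (0.41), then Pdcd6ip, B4galnt1, Nsun2 and Psmg1. Gclm was most like Rps3a1 (0.40), then Rab11a, Zwint and Vamp8 among its 5, and Tfrc was most like Mrpl39 (0.38), then Nedd4, Dlgap4, Zfp207 and Snrpa. All 35 values lay between 0.35 and 0.54.

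The wider pathways around these genes were present in part, and the counts of their genes found in at least 38 cells stand against 23.1% of all listed genes. Enzymes that supply NADPH, the electron source of both systems, were in at least 38 cells for 9 of 13 genes (69.2%): Idh2 with a median of 890 TPM, Taldo1 with 567, Pgls with 301, Tkt with 187, Me2 with 173, Pgd with 77.0, Idh1 with 58.4, Nnt with 5.13 and G6pdx with 3.79 TPM. Me1, the cytosolic malic enzyme, was at 0 in every cell. Among 21 partners and targets of Nrf2, 7 passed (33.3%): Akr1a1 with a median of 595 TPM, Rbx1 with 381, Sqstm1 with 317, Esd with 237, Mgst3 with 128, Blvra with 121 and Akr1b3 with 9.18 TPM. The genes that did not pass ran from Mgst1 in 37 cells to Abcc4 in 0, with Srxn1 in 10, Osgin1 in 3 and Slc7a11 in 2. Beyond Gclc, Gclm and Gsr, 4 of 14 listed genes of glutathione supply and use passed (28.6%): Esd again, Glo1 with 137 TPM, Slc1a5 with 133 and Slc3a2 with 119 TPM. Gss, the second enzyme of glutathione synthesis, was in 16 cells.

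Of a list of 20 genes that joins relatives of thioredoxin, its inhibitor and other redox genes such as Park7 and Msrb1, 13 passed (65%). Their medians were 1042 TPM for Park7, a sensor of oxidants, 732 for Txnl4a, 686 for Pdia3, 519 for Pdia6, 377 for P4hb, 151 for Tmx1, 147 for Txnl1, 138 for Pdia4, 99.2 for Txndc5, 94.3 for Txndc12, 84.9 for Txndc17, 46.9 for Txndc9 and 3.57 TPM for Msrb1. Txnip, the inhibitor of thioredoxin, was in 14 cells. Of 17 genes of selenoproteins and their synthesis, 11 passed (64.7%): Selenof with 730 TPM, Selenok with 645, Selenow with 644, Selenos with 514, Selenoh with 262, Selenop with 206, Pstk with 52.5, Eefsec with 29.6, Sephs2 with 22.1, Sephs1 with 7.82 and Msrb1 again. Of the factors that decode the UGA shown above, Eefsec was in 49 cells and Secisbp2 in 22. The Gpx1 and Gpx4 transcripts that hold it were in every cell. Of the listed genes that make selenocysteine, Sephs2 was in 63 cells, Pstk in 43 and Sepsecs in 5.

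Of 13 sources of oxidants, 7 passed (53.8%), among them Cyba with a median of 1545 TPM, Rac2 with 501, Rac1 with 249, Ncf4 with 198, Ncf1 with 73 and Mpo with 32.1 TPM. Cybb, the catalytic partner of Cyba in the NADPH oxidase of phagocytes, was in 3 cells. Of 17 genes of iron uptake, export and regulation, 4 passed (23.5%, near the share of all genes): Pcbp1, an iron chaperone of ferritin, with 353 TPM, Hmox2 with 231, Ncoa4, which delivers ferritin for breakdown, with 76.1, and Pcbp2 with 70.1 TPM. The iron regulatory proteins Aco1 and Ireb2 were in 18 and 19 cells. Of 22 genes of iron-sulphur clusters and haem, 13 passed (59.1%), among them Iscu with 217 TPM, Isca2 with 204, Cisd1 with 157, Bola2 with 136, Urod with 123, Bola3 with 120, Cisd3 with 114, Alas1 with 71.4, Ciapin1 with 60.3, Cisd2 with 52.9 and Nfs1 with 4.30 TPM. Alas2, the erythroid enzyme that starts haem synthesis, was in 1 cell. Of 10 further genes of ferroptosis, 4 passed (40%): Vdac3 with 387 TPM, Vdac2 with 296, Lpcat3 with 115 and Dhodh with 14.3 TPM, while Acsl4, which primes lipids for it, was in 23 cells.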

How the data were processed

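PolyA RNA of 76 sorted single iHPCs was sequenced. Per the labels' protocols, cDNA and libraries were made with Vazyme kits. The authors deposited 1 table of TPM, in which every cell summed to 1000000, so depth is unknown. Per the submitters' processing notes, HISAT2 2.1.0, SAMtools 0.1.19, StringTie 1.3.4, bcl2fastq and the build mm10 were used; which annotation was used, and whether genes were filtered, is not given in the sources used here. All cells were kept, and no doublet caller was run, since each library was made from 1 sorted cell per the labels.

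The members, the gene lists and the pairs were chosen with earlier results of these data known. All members were named, those in at least 38 cells with lowest, median and highest TPM, and the other lists by their genes in at least 38 cells; 11 genes of the lists stood in the table under an older symbol. Some genes that this rule would name are not reported here. Cell H9, and the genes described in it outside the lists, were singled out after their values were seen. Shares carry exact Clopper-Pearson 95% intervals, which cover the counting of cells only. Correlations used log2(TPM + 1). Shared sequence was the percentage of 50-base stretches of a gene's GENCODE vM21 transcripts found in another gene's; symbols and promoters came from RefSeq (GRCm38.p6). The labels name no separate cultures or animals, so cells were not treated as replicates. Computation used Python 3.11.15, NumPy 2.4.6, pandas 2.3.3 and SciPy 1.17.1, and was tested on simulated data. Alternatives were other detection limits, pseudocounts and correlations, cells with at least 3500 genes, each set of title numbers, and leaving out cell H9.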

Additional observations from a re-analysis of the deposited data

How the results depend on the processing

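The summary values moved little under the alternatives run. The median number of members per cell was 25 to 29 and the number in at least 38 cells, or in at least 50% of a subset, 26 to 29, under detection limits from any value above 0 to 10 TPM and in each subset of cells. The median share of TPM was 2.23 to 2.54%, and the median rho between members 0.0004 to 0.020. With any value above 0 counted, the shares of 15 single members left their intervals, with 5 TPM 5 and with 10 TPM 6. Title numbers 2 to 6 moved 10 shares and 7 to 11 moved 6; cells with at least 3500 genes, or all but cell H9, moved none. Of 1701 values for single members and pairs under these alternatives, 233 moved beyond their interval, 1 SD or a rho of 0.1. Of these 233, 156 were in a set of title numbers. Some weak correlations changed sign. Sod1 with Cat, at 0.03 over all cells, was at 0.20 in title numbers 2 to 6 and -0.16 in numbers 7 to 11. Nfe2l2 with Keap1 went from 0.03 to -0.12 in numbers 2 to 6. The highest and lowest member pairs named above kept their sign throughout. Reads per cell are unknown, so a 0 may be a transcript that was not captured. No paired analysis was possible because all cells belong to 1 group and the labels number no replicates.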
